A study of Mus musculus with 8 samples.

Results

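Transcripts of 10 genes of the acute-phase response and of iron handling were compared between hearts with myocardial infarction (MI) and hearts of sham-operated mice: Lcn2, Saa3, Hp, Cp, Lbp, Ptx3, Hamp, Tfrc, Slc40a1 and Fth1. Each gene was read by its probes for RefSeq transcripts on a mouse microarray, and the brightest probe well above background on at least 4 of 8 arrays was used. All 10 genes had such a probe, among 15152 genes that did. The MI group comprised 4 adult male C57BL/6 mice with coronary ligation and the sham group 4 adult male C57BL/6 mice with a sham operation. The labels give no allele or agent that differed between the groups, and the mice of both groups had a PET scan with labeled glucose before sacrifice. RNA was taken from the ventricles 24 h after surgery, with 1 array per mouse, and the labels do not separate infarcted from remote tissue.

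In the acute-phase response, cytokines such as interleukin 6 and interleukin 1 change the output of secreted proteins, mostly by the liver but also by other tissues and by leukocytes. Part of this response withholds iron: hepcidin, encoded by Hamp, makes cells degrade ferroportin, the iron exporter encoded by Slc40a1, and lipocalin 2 binds the siderophores with which bacteria collect iron. Cells take up iron bound to transferrin through the transferrin receptor (Tfrc), store it in ferritin (Fth1 encodes the heavy chain) and oxidize it for export with ceruloplasmin (Cp).

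RefSeq windows of the 250 bases before a transcription start (build GRCm38.p6) were at hand for 7 of the 10 genes, and not for Hp, Lbp and Slc40a1. The windows shown here belong to 3 of the genes whose transcripts rose and to Hamp, whose transcript had the widest spread between mice. They were searched on both strands for the letters of a STAT site (TTCNNNGAA), a C/EBP site (TTGCNNAA), an NF-kB site, a hypoxia response element (ACGTG), a BMP response element (GGCGCC) and a TATA box (TATAAA), and capitals mark each match.
Tfrc (chr16:32608646-32608895, plus strand): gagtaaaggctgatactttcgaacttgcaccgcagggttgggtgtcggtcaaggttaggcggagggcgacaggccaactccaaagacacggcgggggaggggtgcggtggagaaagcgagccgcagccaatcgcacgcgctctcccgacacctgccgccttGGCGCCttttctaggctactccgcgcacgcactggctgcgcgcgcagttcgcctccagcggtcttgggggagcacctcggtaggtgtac
Ptx3 (chr3:66219637-66219886, plus strand): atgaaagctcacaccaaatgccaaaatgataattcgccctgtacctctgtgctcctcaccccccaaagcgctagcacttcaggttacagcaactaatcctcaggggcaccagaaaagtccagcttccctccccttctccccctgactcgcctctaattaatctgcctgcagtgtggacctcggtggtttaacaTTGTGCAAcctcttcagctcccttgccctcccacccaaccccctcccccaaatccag
Saa3 (chr7:46715677-46715926, minus strand): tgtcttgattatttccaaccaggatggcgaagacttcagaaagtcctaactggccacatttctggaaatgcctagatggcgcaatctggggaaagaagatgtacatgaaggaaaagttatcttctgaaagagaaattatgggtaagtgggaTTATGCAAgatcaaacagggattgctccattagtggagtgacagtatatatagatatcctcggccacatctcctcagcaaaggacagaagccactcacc
Hamp (chr7:30944030-30944279, minus strand): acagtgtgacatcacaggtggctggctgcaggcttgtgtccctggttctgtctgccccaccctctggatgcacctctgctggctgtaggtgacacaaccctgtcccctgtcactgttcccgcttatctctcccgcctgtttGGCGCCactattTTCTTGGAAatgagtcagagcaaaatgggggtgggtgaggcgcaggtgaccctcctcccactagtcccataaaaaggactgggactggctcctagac
The Hamp window held a STAT match from 97 to 89 bases before the start and, 6 bases further upstream, a BMP response element match. The windows of Saa3 (99 to 92 bases before the start) and Ptx3 (57 to 50 bases) each held a C/EBP match, as did those of Lcn2, Cp and Fth1. The Tfrc window held 1 BMP response element match, and a second RefSeq start of Tfrc had an ACGTG match. Of 32851 RefSeq windows of this length, 7.02% held the STAT letters, 9.56% the C/EBP letters, 9.59% GGCGCC, 16.6% ACGTG, 12.4% TATAAA and 1.41% the NF-kB letters, which none of the windows of these genes held. The letters overlap no other match in the windows shown. A match is a description of these letters and no evidence that a factor was bound.

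The share of spots well above background was between 58.6% and 66.4% per array, and log2 values of arrays of the same group correlated with r between 0.988 and 0.994. The markers of cardiomyocytes Myh6, Actc1, Tnnt2, Ryr2, Pln and Tnni3 were well above background on all 8 arrays, and 0 of these 6 genes were called by limma. In 2 libraries, sham mouse 3 and MI mouse 2, some transcripts that hepatocytes make stood apart. Albumin (Alb) had a log2 level of 9.68 in sham mouse 3 and 7.45 in MI mouse 2, and between 1.32 and 3.70 in the other 6 mice, in which it was not well above background. The fibrinogen chain Fgb (9.54 and 8.30) and the acute-phase gene Saa2 (10.87 and 9.27) had the same pattern, with at most 4.53 and 7.13 in the other mice. In all, 7 of 36 genes of the acute-phase and hepatocyte lists (Alb, Fgb, Fgg, Saa2, Orm1, Serpina1a and Hpx) were highest in these 2 mice by over 1 log2 unit. Of the 8 hepatocyte markers, only Alb was among them, and the other markers on that list did not meet this rule. Results are therefore also given without both mice, a setting chosen after the data were seen.

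**Figure D1:**
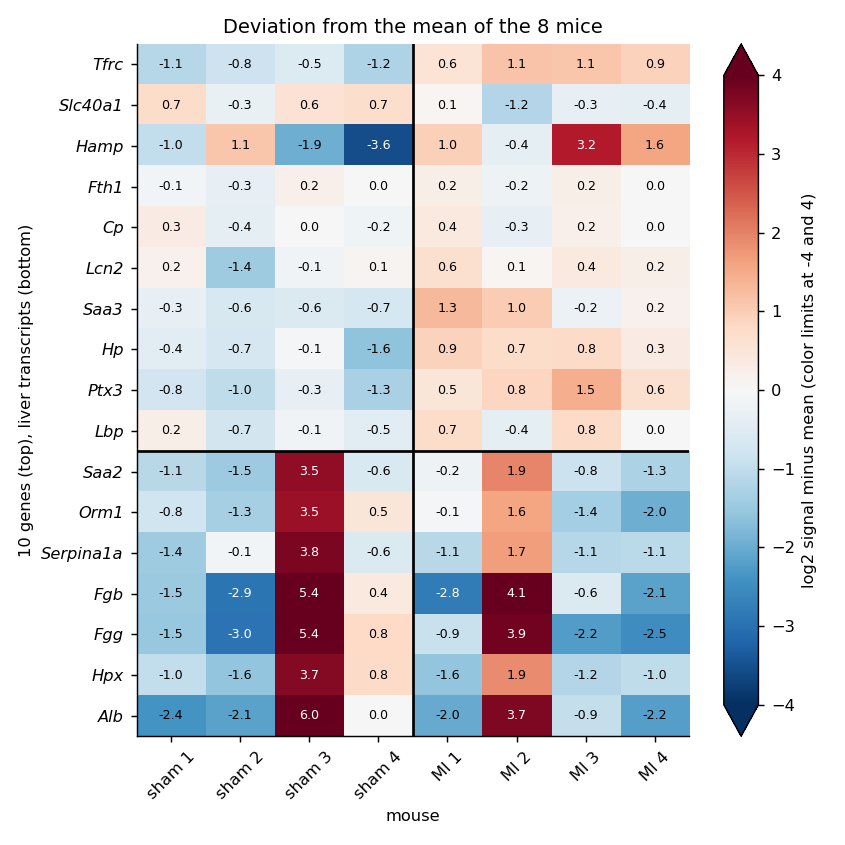
Log2 signal of each gene in each mouse minus its mean over the 8 mice (color and printed number), for the 10 genes (top rows) and 7 liver transcripts (bottom rows), with sham-operated mice on the left and MI mice on the right. The 7 liver transcripts were chosen because they were highest in sham 3 and MI 2, so this pattern follows from the choice of rows. Tfrc, Ptx3 and Hp are below their mean in all 4 sham-operated mice and above it in all 4 MI mice.

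Tfrc, Ptx3, Hp and Saa3 rose after MI: 4 of the 10 genes were over 2-fold higher with an adjusted p under 0.05 (limma with Benjamini-Hochberg adjustment over 34038 probes). Of all 34038 probes, 3.87% were called higher by this rule and 0.596% lower. The same 4 genes were those whose groups did not overlap, with higher values in each MI mouse, against 7.62% of all probes that did not overlap in this direction and 2.79% in the other. At any fold, the adjusted p was under 0.05 for the same 4 genes (4.74% of all probes were called higher and 0.729% lower at any fold). By limma, 0 of the 10 genes were called lower, with 1 gene (Slc40a1) lower at an unadjusted p under 0.05, and 0 genes were called lower by significance analysis of microarrays or by the unmoderated comparison. The median log2 difference over the 10 genes was 0.89, and that over all probes was 0.11. Levels are log2 signals after the signals of each array were shifted to a common spike-in level, and differences are MI minus sham. The level of 1 gene cannot be set against that of another, since probes differ in brightness. In RNA of whole tissue, more cells of a type and more RNA per cell cannot be told apart.

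Scaling the arrays to their 75th percentile, in place of the spike-in RNA, lowered every difference by 0.13 and placed the median of all probes at -0.02. Under that scaling 1043 probes were called higher and 401 lower at 2-fold, against 1317 and 203 with the spike-in shift. At any fold 2963 probes were then called higher and 3010 lower, against 1614 and 248. Of the 10 genes, 3 were then called higher (Tfrc, Ptx3 and Hp) and 1 lower (Slc40a1). Without sham mouse 3 and MI mouse 2, 3 genes were called higher, again Tfrc, Ptx3 and Hp, and 0 lower by limma (0 also at an unadjusted p under 0.05), and the median of all probes was 0.31.

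**Figure D2:**
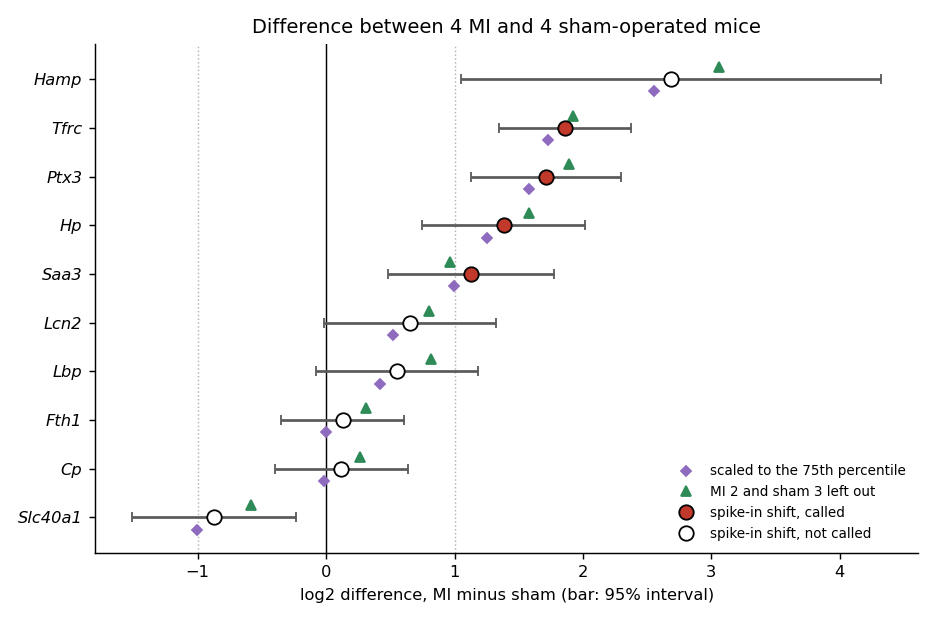
Log2 difference between MI and sham-operated mice for the 10 genes, with the 95% interval of the limma fit (bars), filled circles where the gene was called (over 2-fold, adjusted p under 0.05) and dotted lines at 2-fold. Diamonds give the difference after scaling to the 75th percentile and triangles that without MI 2 and sham 3. The interval of Hamp, from 1.05 to 4.32, is the widest of the 10.

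Tfrc, through which cells take up transferrin-bound iron, had the smallest adjusted p of the 10 genes. Log2 levels were 7.01, 7.32, 7.59 and 6.89 in sham-operated mice 1 to 4 and 8.69, 9.27, 9.25 and 9.04 in MI mice 1 to 4. Every MI mouse was higher than every sham-operated mouse. The log2 difference was 1.86 ± 0.24 (SE, n = 4 per group), a 3.63-fold higher level (95% interval from 2.55 to 5.19), with an adjusted p of 0.000114 in limma. The exact two-sided permutation p was 0.0286, the smallest that 4 against 4 mice can give. A second Tfrc probe, well above background on all arrays, gave a log2 difference of 1.37 (adjusted p = 0.00184 in limma), and 0.34 (adjusted p = 0.0587) under the vsn likelihood. The dimmest Tfrc probe was well above background in 4 MI mice and in 1 sham-operated mouse and passed the filter through the MI group. Its log2 difference was 1.22 with the spike-in shift, 0.33 in the authors' values, 0.09 under normexp and 0.07 under the vsn likelihood. By its brightest probe, Tfrc was called in all 22 alternatives, and its log2 difference was 1.06 under the vsn likelihood and 1.92 without MI mouse 2 and sham mouse 3.

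Slc40a1 encodes ferroportin, which exports iron from cells. The log2 levels of Slc40a1 were 10.87, 9.83, 10.69 and 10.83 in sham-operated mice 1 to 4 and 10.21, 8.96, 9.80 and 9.76 in MI mice 1 to 4. The groups overlapped through sham mouse 2, which lay below MI mouse 1, and the other 3 sham-operated mice lay above every MI mouse. The log2 difference was -0.87 ± 0.30 (SE, n = 4 per group; 95% interval from -1.51 to -0.23), with an adjusted p of 0.119 in limma and an exact permutation p of 0.0571. Under scaling to the 75th percentile it was -1.004 with an adjusted p of 0.01005 in limma, and Slc40a1 was called lower there. Without sham mouse 2 it was -1.11 with an adjusted p of 0.0383 in limma, whereas without MI mouse 2 and sham mouse 3 it was -0.59 (adjusted p = 0.262). Tfrc and Slc40a1, which move iron in opposite directions across the cell membrane, thus had differences of opposite sign, of which only that of Tfrc passed the test with the spike-in shift.

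Hamp, which encodes hepcidin, the hormone that binds ferroportin, varied most between mice. In sham-operated mice 1 to 4 its log2 levels were 8.77, 10.86, 7.82 and 6.20, and in MI mice 1 to 4 they were 10.73, 9.40, 12.94 and 11.34. The groups overlapped, since sham mouse 2 lay above MI mice 1 and 2. The log2 difference of 2.69 ± 0.77 (SE, n = 4 per group) had the largest size of the 10 genes and did not pass the test (adjusted p = 0.0532 in limma, exact permutation p = 0.0857). The arrays stood in 2 rows on the slide, and the difference was 0.24 in row 1 (mice 1 and 2 of each group) and 5.13 in row 2 (mice 3 and 4). Hamp was called in 7 of 22 alternatives. These were the authors' values (adjusted p = 0.0340 in limma), dim spots set to missing (0.0144) and probes well above background on all 8 arrays (0.00525). The others were normexp (7.07e-26) and 3 settings with 1 mouse left out. Under normexp, the adjusted p of the genes given here and below followed the size of the difference. It therefore does not measure the spread between mice. In the unmoderated comparison, which uses the spread of each gene, the adjusted p of Hamp was 0.394. The adjusted p in limma fell to 0.0427 without MI mouse 4, to 0.0390 without sham mouse 1 and to 0.00330 without sham mouse 2, and was 0.125 without MI mouse 2 and sham mouse 3. Hamp was not high in the mice with liver transcripts: MI mouse 2 was the lowest of the MI mice, and sham mouse 3 was the third of the sham-operated mice. Hamp2, a close copy of Hamp, had log2 levels between 5.45 and 6.47 in the 8 mice and a log2 difference of -0.02 (adjusted p = 0.984 in limma). How far the copies share signal was not tested.

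The genes of iron storage and of the ferroxidase did not pass the test. Fth1, the heavy chain of ferritin, had log2 levels from 17.65 to 18.16 in sham-operated mice and from 17.75 to 18.20 in MI mice. Its log2 difference was 0.13 ± 0.23 (SE, n = 4 per group; 95% interval from -0.35 to 0.61; adjusted p = 0.845 in limma), and the upper end of the interval is a 1.53-fold higher level. Cp, which encodes the ferroxidase ceruloplasmin, had log2 levels from 11.38 to 12.09 in sham-operated mice and from 11.42 to 12.14 in MI mice, with a log2 difference of 0.12 ± 0.24 (SE, n = 4 per group; 95% interval from -0.40 to 0.64; adjusted p = 0.876 in limma). With scaling to the 75th percentile, both differences were on the other side of 0 (-0.00114 for Fth1 and -0.0136 for Cp).

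**Figure D3:**
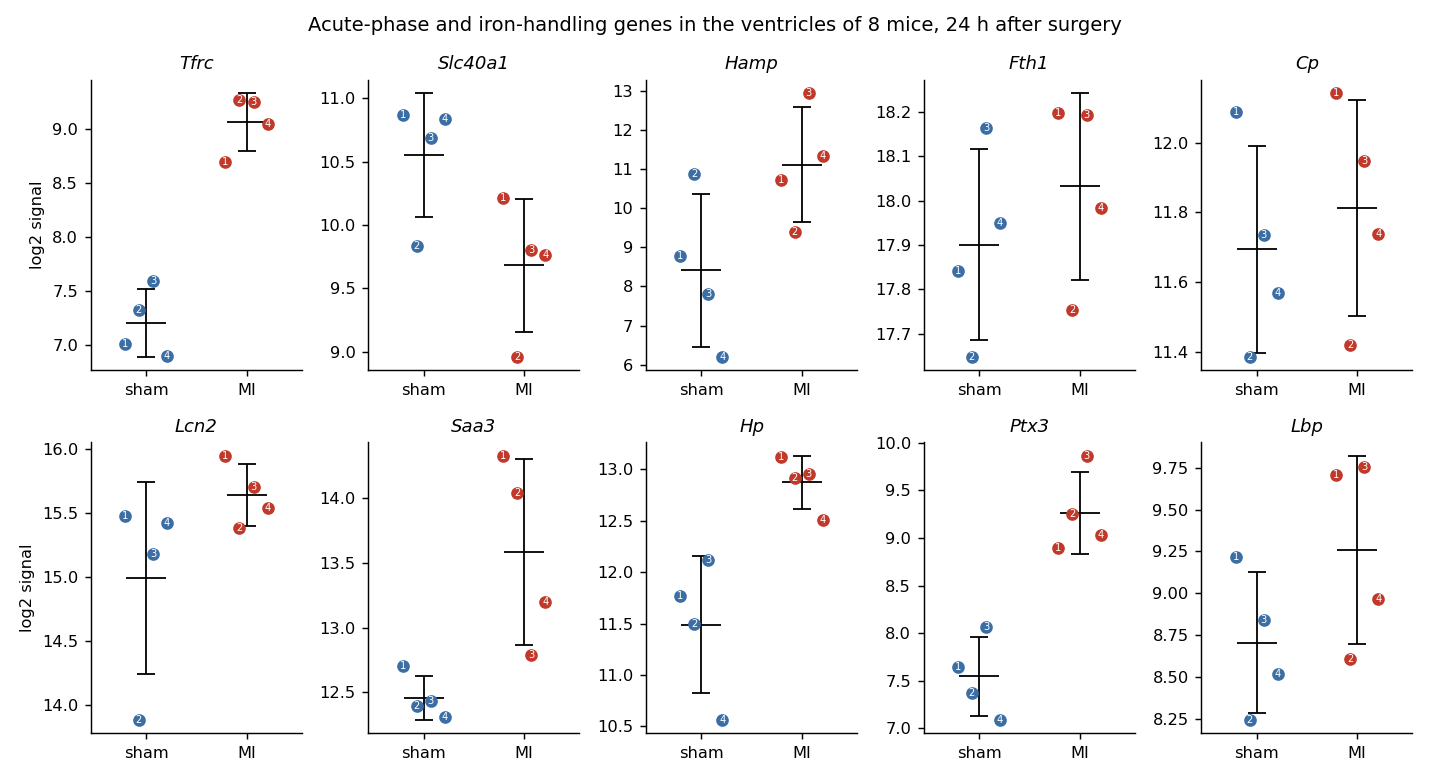
Log2 signal of the 10 genes in each of 4 sham-operated (blue) and 4 MI mice (red), 24 h after surgery; the number in a point is the replicate, and black lines give the mean ± SD. The log2 axis of each panel has its own range. The groups are separate for Tfrc, Ptx3, Hp and Saa3, and Hamp spreads from 6.20 to 10.86 in sham-operated mice.

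Ptx3 encodes pentraxin 3, a long pentraxin that binds microbes and complement and is made by vascular cells and leukocytes. Levels of Ptx3 on the log2 scale were 7.65, 7.38, 8.07 and 7.09 in sham-operated mice 1 to 4 and 8.89, 9.25, 9.87 and 9.03 in MI mice 1 to 4. All MI mice were higher than all sham-operated mice. The log2 difference was 1.71 ± 0.28 (SE, n = 4 per group), a 3.28-fold higher level (95% interval from 2.19 to 4.91; adjusted p = 0.000829 in limma, exact permutation p = 0.0286). It was 1.89 without MI mouse 2 and sham mouse 3.

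Hp encodes haptoglobin, which binds free hemoglobin. Its log2 level was 11.77, 11.50, 12.12 and 10.57 in sham-operated mice 1 to 4 and 13.12, 12.92, 12.95 and 12.51 in MI mice 1 to 4. The groups were separate, with the MI mice closer to each other (SD 0.26) than the sham-operated mice (SD 0.66). The log2 difference was 1.39 ± 0.30 (SE, n = 4 per group), a 2.61-fold higher level (95% interval from 1.68 to 4.06; adjusted p = 0.00980 in limma, exact permutation p = 0.0286). It was 1.38 in row 1 of the slide and 1.39 in row 2. Without MI mouse 2 and sham mouse 3, the log2 difference of Hp was 1.58 (adjusted p = 0.0300 in limma).

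Saa3 encodes a serum amyloid A made mainly outside the liver. Its log2 level was 12.70, 12.39, 12.43 and 12.31 in sham-operated mice 1 to 4 and 14.33, 14.04, 12.79 and 13.20 in MI mice 1 to 4. The sham-operated mice lay close together, and MI mice 1 and 2 were further from them than MI mice 3 and 4. The log2 difference was 1.13 ± 0.31 (SE, n = 4 per group), a 2.19-fold higher level (95% interval from 1.40 to 3.42; adjusted p = 0.0392 in limma, exact permutation p = 0.0286), with 1.64 in row 1 of the slide and 0.62 in row 2. This call was lost in 12 of 22 alternatives, among them the leaving out of MI mouse 1 (0.88, adjusted p = 0.135 in limma), MI mouse 2 (0.98, adjusted p = 0.0992), sham mouse 2 (1.11, adjusted p = 0.0830), sham mouse 3 (1.12, adjusted p = 0.0819), sham mouse 4 (1.08, adjusted p = 0.0746), or MI mouse 2 with sham mouse 3 (0.97, adjusted p = 0.156). The call of Saa3 was also lost with scaling to the 75th percentile (adjusted p = 0.09997 in limma), quantile normalization (0.0723) and the vsn likelihood (0.102). Significance analysis of microarrays, the method of the study, gave a q of 0.0747. With no filter on dim probes the adjusted p was 0.167 in limma, and in the unmoderated comparison it was 0.246. The mice also differed in which gene was high: MI mouse 3 had the highest Ptx3 and Hamp levels of the MI group and the lowest Saa3 level.

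Lcn2 and Lbp did not pass the test. Lcn2 encodes lipocalin 2, which binds bacterial siderophores. Its log2 level was 15.48, 13.88, 15.18 and 15.42 in sham-operated mice 1 to 4 and 15.95, 15.38, 15.70 and 15.54 in MI mice 1 to 4. MI mouse 2 lay below sham mice 1 and 4, and sham mouse 2 lay apart from the other 7 mice. The log2 difference of Lcn2 was 0.65 ± 0.32 (SE, n = 4 per group; 95% interval from -0.02 to 1.32; adjusted p = 0.310 in limma, exact permutation p = 0.0857), and it was 0.28 without sham mouse 2. Lbp encodes the protein that hands bacterial lipopolysaccharide to CD14. Its log2 levels ran from 8.24 to 9.22 in sham-operated mice and from 8.61 to 9.75 in MI mice, which overlap. The log2 difference of Lbp was 0.55 ± 0.30 (SE, n = 4 per group; 95% interval from -0.08 to 1.18; adjusted p = 0.370 in limma).

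Several cytokines and signaling genes that drive the acute-phase response rose. Of 18 genes of this group, all well above background on all arrays, 6 were called higher and 0 lower at 2-fold, and Osmr, a receptor chain for oncostatin M, was called below 2-fold. Of all 15152 genes, by their brightest probes, 4.66% were called higher. Il6, the main inducer of hepatic acute-phase proteins, ran from 7.13 to 9.28 on the log2 scale in sham-operated mice and from 10.76 to 12.24 in MI mice, a difference of 3.43 ± 0.44 (SE, n = 4 per group; adjusted p = 0.000103 in limma). Il1b rose by 3.32 on the log2 scale (adjusted p = 0.000167 in limma), Socs3, a feedback inhibitor of STAT3 signaling, by 2.16 (adjusted p = 2.9e-05) and Tnf by 2.04 (adjusted p = 0.00115). The log2 difference of Tnf varied with the processing. It was 1.62 in the authors' values, 0.82 under normexp and 0.45 under the vsn likelihood (adjusted p = 0.0685 in limma). The median log2 difference of the group was 0.75.

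Of 24 other proteins that the acute phase raises, 18 genes passed the filter on dim probes. Of these, 1 was called: Il1rn, the interleukin 1 receptor antagonist. This count is near the share of all genes called higher, 4.66%. Il1rn was well above background in all 4 MI mice and in 1 sham-operated mouse, so that it passed the filter through the MI group, and its log2 difference varied with the processing, from 3.24 with the spike-in shift to 2.09 in the authors' values, 1.02 under normexp and 0.50 under the vsn likelihood. The median log2 difference over the 18 genes was 0.08. Saa1, a serum amyloid A of the liver, ran from 11.12 to 12.46 on the log2 scale in sham-operated mice and from 11.64 to 13.05 in MI mice, with a difference of 0.84 (adjusted p = 0.212 in limma). For Saa2, whose highest values were those of sham mouse 3 and MI mouse 2, the log2 difference was -0.18 (adjusted p = 0.950 in limma). Saa1 and Saa2 are near-identical in sequence, and how far their probes share signal was not tested. Of 7 proteins that the acute phase lowers, 4 genes passed the filter and 0 were called, among them Trf, the plasma iron carrier transferrin (log2 difference 0.11, adjusted p = 0.887 in limma).

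Among 13 receptors and partners of the secreted proteins, 4 were called higher and 0 lower, beside 4.66% of all genes called higher. Fpr2, a receptor for serum amyloid A and formylated peptides, rose by 3.42 on the log2 scale (adjusted p = 2.22e-07 in limma). Mmp9, the protease that forms a complex with lipocalin 2, rose by 2.76 (adjusted p = 9.15e-06), Cd14, which receives lipopolysaccharide from LBP, by 2.27 (adjusted p = 0.000161) and Tlr2 by 1.45 (adjusted p = 0.000758). Tlr4, which signals with CD14, had a log2 difference of 0.04 (adjusted p = 0.969 in limma). The lipocalin 2 receptor Slc22a17 had a log2 difference of -0.15 (adjusted p = 0.857 in limma) and Cd163, the receptor for haptoglobin with hemoglobin, one of 0.92 (adjusted p = 0.139).

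Of the other iron genes, 1 in each of 3 lists was called higher, beside the 4.66% of all genes. Of 16 genes of iron uptake and transport that passed the filter, only Slc11a1, the metal transporter of phagosomes, was called (log2 difference 1.52, adjusted p = 0.00153 in limma). Tfr2, a relative of Tfrc that senses iron, and Heph, a membrane ferroxidase, each had groups that did not overlap, with MI mice lower. Of all probes, 2.79% did not overlap in this direction. The log2 differences were -0.76 and -0.46 (adjusted p = 0.184 and 0.326 in limma). The Tfr2 probe was dim, with signals between 14.8 and 44.4. Its log2 difference was -0.27 under normexp (adjusted p = 0.712 in limma) and -0.08 under the vsn likelihood (adjusted p = 0.729). With scaling to the 75th percentile the log2 difference of Heph was -0.59 (adjusted p = 0.00662 in limma). It was -0.34 under normexp (adjusted p = 0.526 in limma) and -0.16 under the vsn likelihood (adjusted p = 0.347). Of 12 genes of iron storage and sensing, only Bmp2, a ligand that induces Hamp, was called (log2 difference 1.29, adjusted p = 0.0114 in limma). Bmp2 was below 2-fold under normexp (0.86, adjusted p = 0.00144 in limma) and under the vsn likelihood (0.59, adjusted p = 0.0546). Id1, a target of BMP signaling, had a log2 difference of -0.91 and was not called (adjusted p = 0.0520 in limma). With scaling to the 75th percentile Id1 was called lower (-1.04, adjusted p = 0.0414 in limma). Ftl1, the light chain of ferritin, had a log2 difference of 0.31 (adjusted p = 0.570 in limma). Of the iron regulatory proteins, which bind Tfrc and ferritin messages, Ireb2 had a log2 difference of 0.82 with groups that did not overlap (adjusted p = 0.0564 in limma, and 0.00493 with scaling to the 75th percentile). For Ireb2 it was 0.42 under normexp (adjusted p = 0.327 in limma) and 0.25 under the vsn likelihood (adjusted p = 0.134). Aco1 had a log2 difference of -0.19 (adjusted p = 0.800 in limma). Hfe, a partner of the transferrin receptors, had a log2 difference of -0.13 (adjusted p = 0.850 in limma). Of 13 genes of heme and hemoglobin handling, only Hmox1, the heme oxygenase that frees iron from heme, was called, with a log2 difference of 2.21 (adjusted p = 0.000103 in limma).

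**Figure D4:**
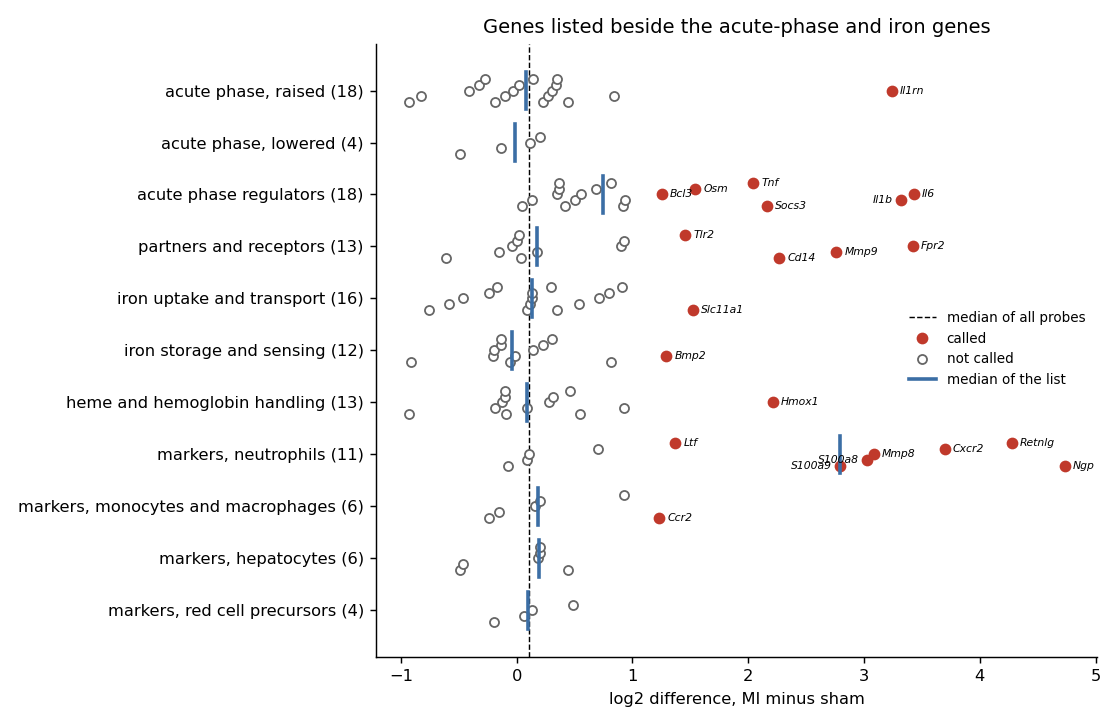
Log2 difference between 4 MI and 4 sham-operated mice for each gene of 11 lists (number that passed the filter in brackets). Filled points were over 2-fold different with an adjusted p under 0.05, blue bars are list medians, and the dashed line at 0.11 is the median of all probes. The neutrophil markers lie furthest to the right, and the other secreted acute-phase proteins lie around 0 apart from Il1rn.

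Neutrophils store lipocalin 2, haptoglobin and pentraxin 3 in their granules. Several markers of neutrophils were higher in MI mice. Of 11 markers, 7 were called higher and 0 lower, beside 4.66% of all genes called higher. The mean log2 level of the 11 markers was between 7.99 and 8.36 in sham-operated mice and between 9.74 and 10.58 in MI mice. This mean includes Ngp, so part of the gap comes with the filter. The log2 difference was 4.27 for Retnlg (adjusted p = 3.82e-07 in limma), 3.70 for Cxcr2 (adjusted p = 7.2e-07) and 3.08 for Mmp8 (adjusted p = 3.35e-06). Ngp passed the filter through the MI group alone, since it was not well above background in any sham-operated mouse, and was at least 11.6-fold higher in MI mice (adjusted p = 3.44e-05 in limma, and 0.106 under the vsn likelihood). Of the 8 markers well above background on all 8 arrays, 5 were called higher. Mpo, Elane, Csf3r and Camp were not called. Of 6 markers of monocytes and macrophages with a retained probe, only Ccr2 was called (log2 difference 1.23, adjusted p = 0.00790 in limma), and 0 of 6 hepatocyte markers, 0 of 4 of red cell precursors and 0 of 5 each of adipocytes and fibroblasts were called by limma. The part of neutrophils in the rise of Tfrc, Ptx3, Hp and Saa3 was not tested.

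The genes whose log2 signal followed that of each gene most closely over the 8 arrays were sought among 15082 genes. These correlations describe 8 arrays in 2 groups, which share the difference between the groups and a shift of each whole array. For Tfrc they were Klra2 (r = 0.997), the formyl peptide receptor Fpr1 (0.995) and Sgms2 (0.993), and on deviations from the group means r was 0.96, 0.97 and 0.90. For Ptx3 they were the neutrophil-attracting chemokine Cxcl5 (r = 0.989), Rell1 and Olfr1417 (both 0.986). Hp was followed by Gda (0.955), Hmga2 (0.941) and Tuba8 (0.939), and Saa3 by Adamts8 (0.910), Gp1bb (0.889) and Rasgrp1 (0.843). Slc40a1 was followed by Pxmp4 (0.991), Hsd11b1 (0.990) and Ttc30b (0.987), and Hamp by Rps6ka6 (0.961), Ropn1 (0.950) and Tbx15 (0.927). For the genes with small differences between the groups, Lcn2 was followed by Pabpc4l, Gimap4 and Rffl (r from 0.966 to 0.969), Cp by Taf15, Macrod1 and Sec31b (0.983 to 0.993), Lbp by Tbc1d20, Cldnd1 and Zc3h10 (0.994) and Fth1 by Zfp967, Gm5523 and Rbbp6 (0.990 to 0.992). With scaling to the 75th percentile, which removes much of the shift of whole arrays, r was 0.44 for Fth1 with Zfp967 and 0.61 for Lcn2 with Gimap4, while it was 0.995 for Tfrc with Klra2.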

How the data were processed

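RNA from the ventricles of 8 mice, 4 per group as the labels give it, was hybridized in 1 colour to Agilent SurePrint G3 arrays, which lay on 1 slide in 2 rows with 2 mice of each group per row. The deposited intensities are, per the file headers, signals of Feature Extraction 11.0.1.1 after subtraction of the local background and removal of spatial trends, not normalized between arrays. The deposited log2 values of the authors had been normalized with limma and vsn on the spike-in probes. Annotation follows the arrays' design and RefSeq (GRCm38.p6).

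Here log2 processed signals were shifted by the mean of 234 spike-in spots of 7 probes, with no additive constant. Constants of 166 to 257, fitted here with a vsn likelihood, hold back the fold of dim probes. The constants in the authors' values were smaller, from 3.16 to 19.6, so the vsn likelihood used here differs from their normalization. Spots flagged as outliers were left out and spots of a probe averaged. A probe was kept when well above background on at least 4 of 8 arrays. MI was compared with sham in limma 3.58.1 (R 4.3.3) without covariates. The fits were tested on simulated data. Figures and other values were made in Python 3.11.15 with numpy 2.4.6, scipy 1.17.1, pandas 2.3.3 and matplotlib 3.10.9. The number of arrays limits the precision. Each array is a separate mouse.

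Named besides the 10 genes were, of each list, at most the 4 called genes with the largest fold and separate groups in each direction, direct partners, and the 3 most correlated genes; Osmr, Id1 and the genes high in 2 libraries were named after their values were seen. Alternatives were scaling to the 75th percentile, quantile normalization, the vsn likelihood, normexp with an offset of 50 (on the median intensity, in place of the mean), the authors' values, dim spots set to missing, other filters, significance analysis of microarrays, an unmoderated comparison, a block for the replicate number or the array row, the mean over probes, and each mouse left out. The genes, lists, motifs and tests were chosen with earlier results of these data known.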

Additional observations from a re-analysis of the deposited data

How the results depend on the processing

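Of 220 member values under alternatives, 194 kept their direction and their side of the threshold (2-fold with adjusted p under 0.05), 15 lost the call, 9 gained it (7 for Hamp and 2 for Slc40a1) and 2 changed sign: with scaling to the 75th percentile the log2 difference of Cp was -0.0136 and that of Fth1 -0.00114. The call of Saa3 was lost in 12 of 22 alternatives. The call of Hp was lost with no filter on dim probes and in the unmoderated comparison, and that of Ptx3 in the unmoderated comparison. Genes called higher numbered 2 with no filter on dim probes and 1 in the unmoderated comparison, at 2-fold as at any fold. At any fold, 1 gene, Slc40a1, was called lower with scaling to the 75th percentile, quantile normalization and normexp, and 1 with the replicate block. With 1 mouse left out, between 3 and 5 genes were called higher and 0 or 1 lower (1 without sham mouse 2). Probes called at 2-fold numbered 1520, but 333 under the vsn likelihood, 609 under normexp, 1009 in the authors' values, 993 with no filter and 636 in the unmoderated comparison, and 1238 to 1850 with 1 mouse left out. Of the 90 listed genes that passed the filter, cell type markers not counted, 14 were called higher. This number was 9 under the vsn likelihood and 8 in the unmoderated comparison. It was 14 to 16 with 1 mouse left out, and 19 without MI mouse 2 and sham mouse 3. All listed gene counts other than those under the 75th percentile, the vsn likelihood and the authors' values were added after the data were seen. The causes of these shifts were not tested.

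MI and sham-operated mice share the numbers 1 to 4. The deviations of mice of the same number correlated with r of 0.20, 0.04, -0.07 and 0.01. For mice of different numbers, r was between -0.26 and 0.33. These correlations do not show that the numbers pair the mice, and so few values cannot exclude it. With the replicate block, 1551 probes were called at 2-fold, and at any fold 3569 were higher and 741 lower, against 1614 and 248 without it. Of the 10 genes, 4 were higher at 2-fold. At any fold 5 genes were then higher, with Lbp at an adjusted p of 0.0497 in limma, and Slc40a1 was lower at 0.0111.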
